A study of Mus musculus with 6 samples.

Results

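The hair shaft is built from hair keratins and from the keratin associated proteins that bind them together. These genes were collected by symbol: the hair keratins Krt31 to Krt40 (with Krt33a and Krt33b) and Krt81 to Krt86, and every gene whose symbol starts with Krtap and a number. On the arrays 78 probes met the rule and stood for 64 genes, of 37000 genes and unnamed transcripts measured. The 13 keratins measured were Krt31, Krt32, Krt33a, Krt33b, Krt34, Krt35, Krt36, Krt39, Krt40, Krt81, Krt82, Krt84 and Krt86, and other keratins within these ranges were not analysed here. Beside them stood 51 keratin associated proteins of 24 families. By the layer of the shaft in which each family is made, 31 were listed as cortex, 12 as cuticle, Krt35 as matrix and early shaft, and 20 were left unassigned. These layers were mostly mapped in human follicles, so for many mouse genes they are carried over from the human family. The study asked what the transcription factor Sox4 contributes to skin that received no treatment, and profiled messenger RNA of whole skin on 1-colour Agilent arrays. The KO group held 3 male mice with a conditional deletion of Sox4 in skin, aged 17 (replicate 1), 18 (replicate 2) and 16 weeks (replicate 3). The WT group held 3 wild-type males aged 20 (replicate 1), 19 (replicate 2) and 18 weeks (replicate 3). All 6 had a mixed C57Bl6/129Sv background and all skin was labelled telogen. The labels do not name the promoter that drove the deletion. Each array is one skin sample, and within a group the 3 ages differ.

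Hair keratins come as acidic type I chains (Krt31 to Krt40) and basic type II chains (Krt81 to Krt86), which pair and assemble into filaments. Keratin associated proteins fill the space between the filaments and cross-link them, largely through disulphide bonds between cysteines. The genes switch on in sequence as cells leave the matrix of the hair bulb and move up the shaft of a growing (anagen) follicle, whereas a resting (telogen) follicle holds a finished club hair and no shaft under construction. In bulk skin, fewer cells of a type and less RNA per cell cannot be told apart.

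The start regions of these genes shared a feature that their selection by symbol did not use. RefSeq windows of 300 bases (250 before the annotated start and 50 from it, build GRCm38.p6) existed for 55 of the 64 genes. The letters TATAAA, the core of the TATA box, stood on either strand in 80% of the 55 members' windows, against 13.6% of all 32851 windows. They stood in 24 of 25 cortex windows and in 8 of 10 cuticle windows. On the gene's own strand, TATAAA began 40 to 20 bases before the start in 56.4% of members' windows and in 1.99% of all windows. Neighbouring keratin associated protein genes are often near copies of each other, so these windows are not independent. The stretches printed here are the 100 bases before the start, shown to set members with large differences between KO and WT beside members with small ones, with TATAAA in capitals. Krtap22-2 (chr16:89010760-89010859, minus strand) and Krtap1-5 (chr11:99581017-99581116, minus) had the largest log2 fold changes, with all WT arrays below background for both. Krtap6-1 (chr16:89031599-89031698, plus) and the keratin Krt33b (chr11:100029869-100029968, minus) represent the cortex. Krtap26-1 (chr16:88647797-88647896, minus) and Krt82 (chr15:101550660-101550759, minus) represent the cuticle. Krtap3-2 (chr11:99556854-99556953, minus) had the lowest fold change of all.
Krtap22-2: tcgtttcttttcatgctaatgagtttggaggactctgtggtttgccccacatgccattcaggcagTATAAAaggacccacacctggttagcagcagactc
Krtap1-5: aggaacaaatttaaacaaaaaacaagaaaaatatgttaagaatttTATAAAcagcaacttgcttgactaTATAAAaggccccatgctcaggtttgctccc
Krtap6-1: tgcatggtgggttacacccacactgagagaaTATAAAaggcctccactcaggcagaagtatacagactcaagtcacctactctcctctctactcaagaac
Krt33b: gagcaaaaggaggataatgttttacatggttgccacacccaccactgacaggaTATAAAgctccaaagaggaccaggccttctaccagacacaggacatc
Krtap26-1: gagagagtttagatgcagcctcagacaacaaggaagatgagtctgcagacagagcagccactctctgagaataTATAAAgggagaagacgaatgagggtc
Krt82: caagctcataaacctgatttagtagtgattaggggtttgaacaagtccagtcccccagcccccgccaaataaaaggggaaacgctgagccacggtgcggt
Krtap3-2: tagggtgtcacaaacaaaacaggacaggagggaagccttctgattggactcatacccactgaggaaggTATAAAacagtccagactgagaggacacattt
The last TATAAA began 35 bases before the start in Krtap22-2, 31 in Krtap1-5, 69 in Krtap6-1, 47 in Krt33b, 27 in Krtap26-1 and 32 in Krtap3-2, and the Krt82 stretch held none. The letters were therefore present both in genes far apart between KO and WT arrays and in Krtap3-2.

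Letters bound by regulators of these genes were counted in the same windows on both strands. HOXC13 is a homeodomain factor that binds hair keratin promoters, and LEF1 carries Wnt signals to hair genes. CTTTGA or CTTTGT, the LEF1/TCF core, stood in 54.5% of members' windows and 31.2% of all windows. By layer this core stood in 15 of 25 cortex windows and in 3 of 10 cuticle windows, the latter near the share of all windows. The HOXC13 letters (TTTATN or TTAATN followed by AA, AG, GA or GG) stood in 56.4% of members' windows and 18.9% of all. They stood in 15 of 25 cortex windows and in 4 of 10 cuticle windows. They overlap TATAAA on the opposite strand, and with the TATAAA letters masked the shares were 52.7% and 16.0%. The CCAAT box, a general promoter motif, was about as frequent in members (40%) as in all windows (37.4%), at 14 of 25 cortex and 2 of 10 cuticle windows. These matches describe letters in a window and not binding.

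Values on the arrays are levels: log2 of the processed signal minus log2 of that array's 75th percentile over non-control spots, so that a level of 0 equals the 75th percentile. That percentile lay between 440.2 and 690 units of signal. Between 52.1% and 66.4% of probes were well above background by the scanner's flag, and no spot was saturated. Sox4 itself had signals of 78.7, 69.0 and 59.5 on the KO arrays, against 503.7, 764.2 and 735.2 on the WT arrays. Its log2 fold change was −3.55 (SE 0.15, limma adjusted p = 0.0140), 11.7-fold lower in KO, with no overlap between the groups. Of markers of skin, 8 of 9 were measured and all 8 were above background on every array. The arrays lay on 3 slides: KO replicate 3 with WT replicate 1 on slide 1, KO replicate 1 with WT replicates 2 and 3 on slide 2, and KO replicate 2 alone on slide 3. KO replicate 3 stood apart from the other KO arrays in hair shaft genes, as the values show, so results are given per array and also without it. The replicate columns of the authors' value table are headed the other way round from the scanner files, in which Sox4 is low on the KO arrays, and that table was used only as an alternative.

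Most hair shaft genes were far brighter on KO arrays 1 and 2 than on any WT array, while KO array 3 read as the WT arrays did. Of the 64 members, 0 passed the test of KO against WT across the 3 arrays of each group, against 0.00541% of all genes. The median log2 fold change over the 64 members was 3.06, against −0.09 over all 37000 genes and transcripts. Positive fold changes were found for 61 of 64 members, against 37.5% of all genes. In limma's fit with Benjamini-Hochberg adjustment over all 37000, adjusted p of the members ran from 0.612 to 0.850. The same fit called 2 of all 37000, both lower in KO. At an unadjusted p under 0.05, 18 members were higher in KO and 0 lower, against 4.39% of all genes higher. The 3 KO arrays lay above the 3 WT arrays without overlap for 13 of 64 members, against 6.6% of all genes; for 0 members, against 7.23% of all genes, did they all lie below. In 7 of the 13, a KO array and all WT arrays were below background, where the order of readings carries no information. The count at an unadjusted p under 0.05 was 2, 3 and 55 without KO replicates 1, 2 and 3, and 3, 2 and 3 without WT replicates 1, 2 and 3. The count without overlap, which fewer arrays make easier to reach, was 59 without KO replicate 3 and 21 without WT replicate 1 or 2. Shares of all genes for these smaller sets of arrays are not given here, so these counts cannot be set beside the 4.39% and 6.6%. With 3 arrays against 3, an exact permutation test of a single gene cannot give a p below 0.1. Nothing states whether the samples came from separate litters, so p-values measure the spread between these 6 samples.

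**Figure D1:**
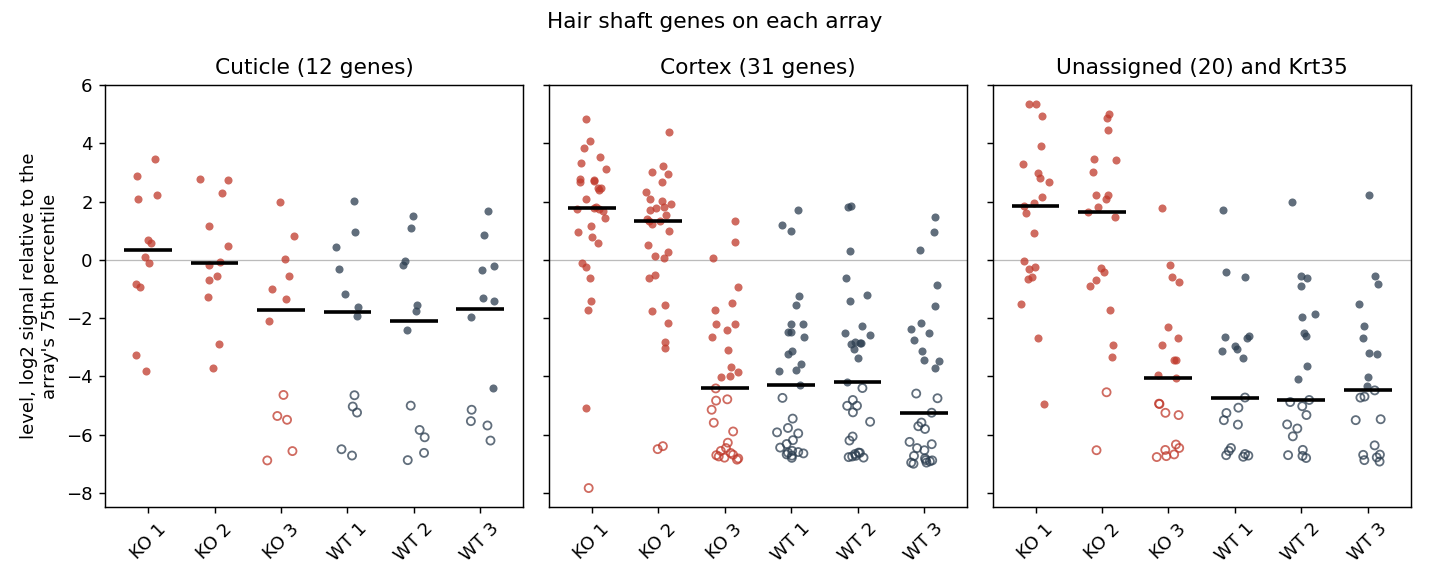
Level of each hair shaft gene (points; log2 signal relative to the array's 75th percentile) on the 3 KO and 3 WT arrays, in 3 panels by layer; black bars are medians over genes and open points were not well above background. KO arrays 1 and 2 sit above the other 4 arrays in each panel, and KO array 3 sits with the WT arrays.

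Among the keratins, the matrix and early shaft keratin Krt35 read 3.31, 3.44 and −3.46 on the KO arrays, against −3.06, −1.85 and −4.02 on the WT arrays. KO arrays 1 and 2 lay far above all WT arrays and KO array 3 lay within the WT range. Its log2 fold change was 4.08 (SE 1.96, limma adjusted p = 0.776). Of the cuticle keratins, type I Krt32 read −3.26, −3.72 and −6.57 in KO and −6.51, −6.63 and −5.54 in WT. Type II Krt82, whose printed stretch held no TATAAA, read −0.94, −0.55 and −4.64 in KO and −4.65, −5.01 and −5.69 in WT. Both were well above background on KO arrays 1 and 2 alone, which leaves only a bound on their fold. Krt32 was at least 1.04-fold and Krt82 at least 5.78-fold higher in KO (adjusted p = 0.805 and 0.698 in limma's fit). Such a bound sets the KO mean over all 3 arrays against the lowest signal well above background on each WT array, or the gene's own signal where that is higher, and a KO array below background enters at its own reading.

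The cortex keratins included several with all WT arrays far below KO arrays 1 and 2. Type II Krt86 read 4.07, 3.02 and −1.71 in KO, against −2.49, −2.85 and −2.36 in WT. Here all 3 KO arrays lay above all WT arrays, KO array 3 by less than 1 log2 unit. Its log2 fold change was 4.36 (SE 1.48, limma adjusted p = 0.674). Type I Krt31 read 2.68, 2.34 and −1.48 in KO and −1.55, −1.19 and −1.59 in WT, with KO array 3 inside the WT range. Its relative Krt33a read 3.85, 3.24 and −2.42 in KO, against −3.80, −1.40 and −3.46 in WT, so that WT array 2 lay above KO array 3. Krt33b was above background on KO arrays 1 and 2 alone (2.46 and 1.92), at least 13.4-fold higher in KO (limma adjusted p = 0.771). Krt34, made late in the cortex, read 2.72, 1.72 and −4.84 in KO and −5.45, −5.24 and −5.81 in WT. It was not well above background on KO array 3 or on any WT array. By the mean over the 3 KO arrays it was at least 21.7-fold higher in KO (limma adjusted p = 0.702).

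Krt81, another type II keratin of the cortex, read 2.79, 2.03 and 1.34 in KO, against 1.19, 1.85 and 1.47 in WT. It lay above the 75th percentile on every WT array, and its log2 fold change was 0.55 (SE 0.40, limma adjusted p = 0.825) with overlapping groups. The remaining keratins were unassigned. Krt84, known in human from the tongue, read −0.06, −0.40 and −0.76 in KO, against −2.63, −0.63 and −2.28 in WT, so that WT array 2 reached into the KO range. Krt36 read −0.65, −0.69 and −2.67 in KO, against −2.68, −3.64 and −1.50 in WT. The late keratin Krt40 was above background only on KO arrays 1 and 2 (−2.68 and −2.94), and Krt39 only on KO array 1 (−4.95). That level of Krt39 is lower than any level well above background on the other arrays. Over the 13 keratins the median log2 fold change was 2.77, and all 13 values were positive. Of the 13, 4 had no overlap between the groups (6.6% of all genes), and in 3 of these 4 a KO array and all WT arrays were below background.

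**Figure D2:**
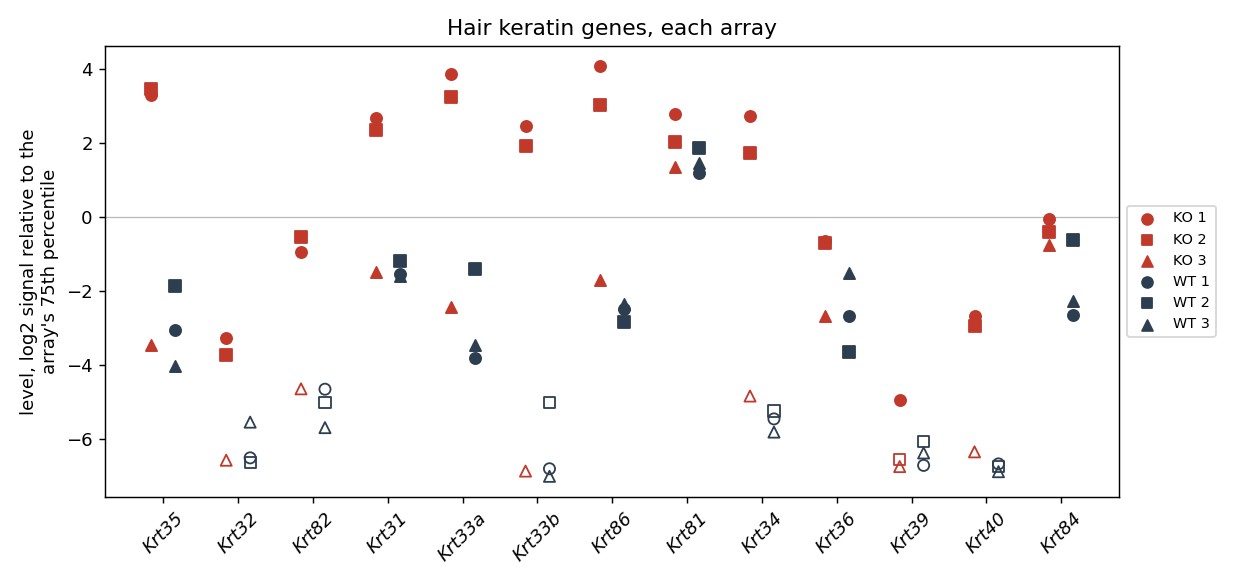
Level of the 13 hair keratin genes (log2 signal relative to the array's 75th percentile) on the KO arrays, left in each pair of columns, and the WT arrays, right; symbols mark the replicate and open symbols were not well above background. KO arrays 1 and 2 lie together at the top for most genes, while for Krt81 all 6 arrays lie between 1.19 and 2.79.

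The 25 keratin associated proteins of the cortex had a median log2 fold change of 3.08, with 23 positive values. The groups did not overlap for 4 of the 25 (6.6% of all genes), 3 of them with a KO array and all WT arrays below background. Krtap1-5, a high sulphur protein gene whose printed stretch held TATAAA at 2 places, read 2.40, 2.09 and −6.28 on the KO arrays. On the WT arrays it read −6.56, −6.63 and −6.33, all below background. KO arrays 1 and 2 were far above all WT arrays and KO array 3 was below background, so the log2 fold change of 5.91 (SE 2.36, limma adjusted p = 0.727) is a mean of unlike arrays, with a bound of at least 15.7-fold. Krtap9-3, of an ultra-high sulphur family, read 2.47, 1.32 and −6.56 in KO and −5.96, −6.67 and −6.88 in WT. It was above background on KO arrays 1 and 2 alone, and at least 12.5-fold higher in KO (limma adjusted p = 0.751). Krtap2-4 had the smallest adjusted p among the 64 members (0.612 in limma's fit), at −0.64, −2.15 and −5.15 in KO and −6.73, −6.79 and −6.96 in WT. KO array 3 and all WT arrays were below background for it.

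Genes of high glycine-tyrosine proteins of the cortex had one pattern. Krtap6-1 read 4.84, 4.38 and −3.67 in KO, against −3.15, −2.87 and −3.44 in WT, so KO array 3 was the lowest of all 6. Krtap7-1 read 1.17, 0.11 and −6.63 in KO and −6.60, −6.62 and −6.73 in WT. Krtap8-1 read 3.52, 2.68 and −2.66 in KO, against −2.64, −2.58 and −3.12 in WT. Krtap6-1 and Krtap8-1 were higher in KO by 5.00 (SE 2.30) and 3.96 (SE 1.61) on the log2 scale. KO array 3 lay below all WT arrays for Krtap6-1 and within the WT range for Krtap8-1. Krtap7-1, below background on KO array 3 and on all WT arrays, was at least 6.92-fold higher in KO (limma adjusted p = 0.750). For the high sulphur gene Krtap11-1 (2.69, SE 1.14) KO array 3 also lay within the WT range.

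The cortex list also held 2 of the 3 members with negative fold changes. Krtap3-2 read 1.75, 1.54 and 0.08 in KO, against 1.73, 1.81 and 0.95 in WT, and was the lowest fold change of the 64 at −0.37 (SE 0.51, limma adjusted p = 0.850). Its family member Krtap3-1 had a log2 fold change of 4.44 (SE 1.91), so the family did not read as one. Krtap3-2 was bright on all 6 arrays, as were Krtap4-8 of the ultra-high sulphur class (3.13, 1.82 and 0.62 in KO; 1.005, 0.30 and 0.35 in WT) and Krt81. Krtap13 was not above background on any array, so its fold change of −0.25 compares background readings. Krtap13-1 read 0.79, 0.08 and −5.89 in KO, against −5.92, −3.06 and −6.25 in WT.

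The median log2 fold change was 1.94 over cuticle members and 3.40 over cortex members, and with levels floored at −4.43 (the highest of the 6 arrays' lowest levels well above background) the medians were 1.08 and 2.98. On KO array 1 alone the floored medians were 1.77 for cuticle and 4.78 for cortex, on KO array 2 they were 1.65 and 4.01, and on KO array 3 both were 0. The medians of the 2 layers are descriptions of 12 and 31 related genes and were not tested against each other. Leaving out one array moved some of these values by over 1.5 times. The cuticle median was 1.08 without KO replicate 1, and the cortex median was 2.21 without KO replicate 1 and 5.43 without KO replicate 3. The cuticle median minus the cortex median was −1.47 over all arrays, −2.62 without KO replicate 3, −2.39 without WT replicate 2 and −0.78 without WT replicate 3. At an unadjusted p under 0.05, 4 of 12 cuticle and 8 of 31 cortex genes were higher in KO (4.39% of all genes). The groups did not overlap for 2 cuticle and 6 cortex genes (6.6% of all genes), of which 1 and 4 had a KO array and all WT arrays below background.

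Among the tested probes, the largest cuticle value was that of Krtap26-1, which read 0.69, −0.07 and −5.36 in KO and −5.04, −6.09 and −6.21 in WT. It was above background on KO arrays 1 and 2 alone, and at least 7.97-fold higher in KO (adjusted p = 0.721 in limma's fit). Krtap24-1, also above background on those arrays alone, read −3.83, −2.90 and −5.49 in KO and −6.72, −6.88 and −5.15 in WT. Krtap12-1 read −0.83, −1.27 and −6.89 in KO and −5.24, −5.84 and −4.39 in WT, and of its WT arrays only the third was above background. On their tested probes, the brightest by mean, the Krtap5 genes of chromosome 7 were well above background on all 6 arrays. These genes code for ultra-high sulphur proteins. A dimmer probe of Krtap5-2 and another of Krtap5-5 were below background on all WT arrays, at log2 fold changes of 4.59 and 4.85. Krtap5-3 read 2.89, 2.73 and 0.81 in KO and 0.94, 1.09 and 0.86 in WT. Krtap10-10 of chromosome 10 was nearly even, at 2.23, 2.29 and 1.97 in KO and 2.01, 1.51 and 1.68 in WT. Its log2 fold change was 0.43 (SE 0.19, limma adjusted p = 0.753). Above background on all 3 WT arrays, by their tested probes, were 7 of 12 cuticle and 13 of 31 cortex genes.

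The unassigned keratin associated proteins held the largest difference. Krtap22-2, of a high glycine-tyrosine family, read 3.92, 3.45 and −4.94 in KO and −6.57, −4.81 and −6.78 in WT. Its log2 fold change was the highest of the members at 6.87 (SE 2.44, limma adjusted p = 0.694), with a bound of at least 41.9-fold. KO array 3 and all WT arrays were below background for it. Krtap20-2, likewise of a high glycine-tyrosine family, read 5.35, 5.00 and −0.59 in KO and −0.60, −0.90 and −0.83 in WT. In signal it read 28077, 18718 and 377 units in KO, against 290, 302 and 286 units in WT. KO array 3 lay just above the WT arrays for it, by less than 0.1 log2 units. Krtap16-3 read 4.94, 4.44 and −2.30 in KO and −2.61, −2.50 and −2.69 in WT, without overlap. Krtap21-1, another high glycine-tyrosine gene, read 2.81, 2.23 and −4.95 in KO and −5.51, −5.03 and −4.48 in WT. It was above background on KO arrays 1 and 2 alone, and at least 23.2-fold higher in KO (limma adjusted p = 0.750). Krtap14 and Krtap15 were above background on KO arrays 1 and 2 alone, with bounds of at least 5.79-fold and 4.40-fold (adjusted p = 0.750 and 0.783 in limma's fit). Krtap17-1 had a log2 fold change of 3.34 (SE 1.65), with KO array 3 inside the WT range. Krtap19-4 was again bright everywhere, at 2.99, 3.03 and 1.78 in KO and 1.70, 1.99 and 2.22 in WT, although fold changes of the other 5 Krtap19 genes ran from 1.87 to 5.55 (log2).

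Counted array by array, with levels floored, 48 of 64 members were at least 2 log2 units above the WT mean on KO array 1, 42 on KO array 2 and 0 on KO array 3. Of all genes, 0.511%, 1.11% and 0.173% were that far above it on the same arrays. For cortex members the counts were 27, 23 and 0 of 31, and for cuticle members 5, 5 and 0 of 12. KO array 1 lay above every WT array for 61 members, KO array 2 for 60 and KO array 3 for 13, against 19.1%, 30.7% and 25.8% of all genes. KO array 3 lay within the WT range for 41 of 64 members and below all WT arrays for 10, readings below background included. Of all 37000 genes and transcripts, 20580 lay within that range on KO array 3 and 6873 below it, so these 2 counts alone do not set the members apart. In the whole table, 150 genes and transcripts were at least 2 log2 units above the WT mean on both KO array 1 and KO array 2, and 105 of them had a name. Of those 105, 42 were hair shaft members (40% of the named genes and 65.6% of the members).

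**Figure D3:**
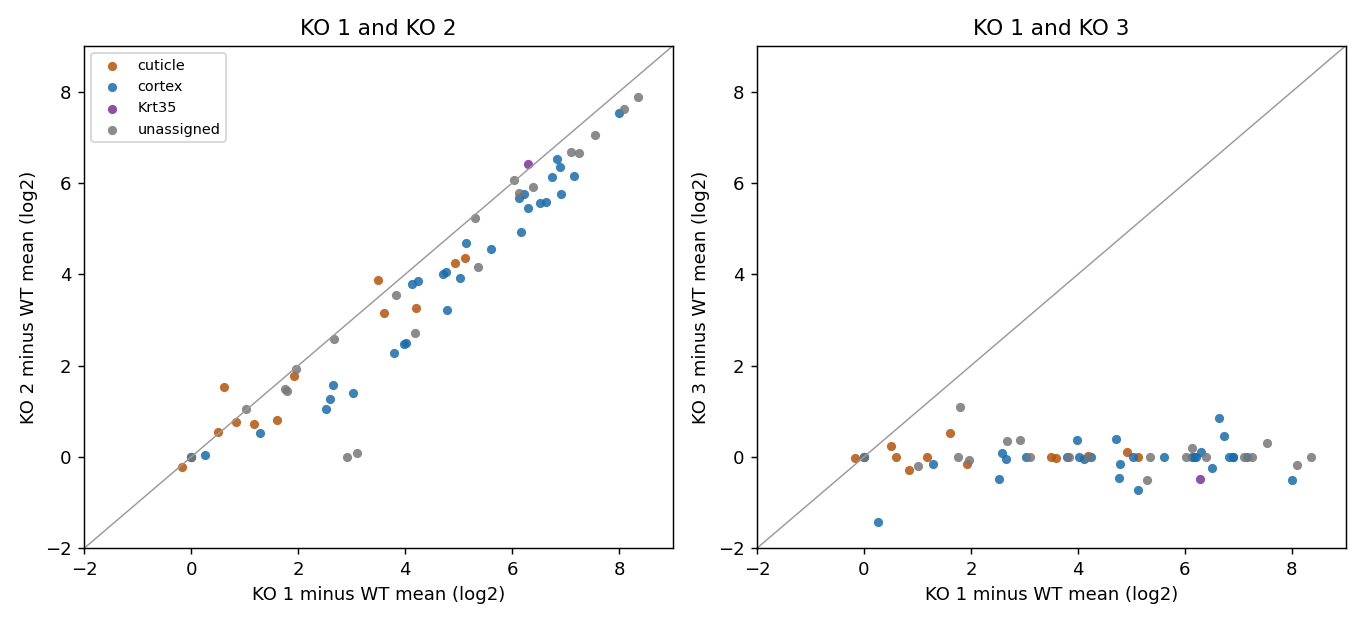
Level of each hair shaft gene minus its WT mean (log2, floored at background) on KO array 1 (x axis) against KO array 2 (left panel, y axis) and KO array 3 (right panel, y axis); the line marks equal values. Genes run along the line and somewhat below it in the left panel, and along 0 in the right panel, where no gene reaches 2.

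Leaving out arrays changed the calls. Without KO replicate 3, limma called 30 members higher in KO, against 84 of all 37000 (0.227%). These were 15 cortex, 3 cuticle and 12 unassigned genes. Krtap1-5 had a log2 fold change of 8.75 (SE 0.19, limma adjusted p = 0.00149) and Krt34 of 7.72 (SE 0.37, limma adjusted p = 0.00725). Both were below background on all WT arrays, so their folds and SEs hold background readings and do not measure the size of the difference. The 3 cuticle genes were Krtap5-2, Krtap26-1 and Krt82. That fit compares 2 KO with 3 WT arrays, and KO replicate 3 was known beforehand to stand apart in these genes. With any other single array left out, 0 members were called. Within slide 2, where KO array 1 stood beside WT arrays 2 and 3, the median difference over the members was 4.99. Within slide 1, where KO array 3 stood beside WT array 1, it was −0.03. The WT arrays' own median differences from the WT mean were 0.06 on slide 1 and 0.03 and −0.13 on slide 2. KO array 2 was alone on slide 3, so its difference from the other arrays cannot be told apart from that slide. Age cannot be told apart from the arrays: KO replicate 3 was the youngest animal at 16 weeks, and only KO replicate 2 and WT replicate 3 shared an age, 18 weeks.

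KO arrays 1 and 2 were compared gene by gene as a description of single arrays. KO array 1 was higher for 57 of 64 members, against 46.0% of all genes, with a median difference of 0.52 log2 units, against −0.04 over all genes. By layer, the median was 0.94 for cortex genes (30 of 31 higher on KO array 1) and 0.30 for cuticle genes (9 of 12). By position, it was 1.24 for the 21 keratin associated proteins of chromosome 11, 0.47 for the 22 of chromosome 16, 0.68 for the 5 of chromosome 7 and 0.08 for the 3 of chromosome 10. Along the shaft, keratins made early (Krt35, Krt32 and Krt82) had a median of −0.14, those made next 0.58 and the late ones (Krt34, Krt39 and Krt40) 0.998. These groups hold 3, 6 and 3 genes, and with levels floored their medians were −0.14, 0.58 and 0.25, so no steady order along the shaft was seen. Krt35 at −0.14 and Krt82 at −0.39 were brighter on KO array 2, and Krt34 at 0.998 and Krt86 at 1.05 were brighter on KO array 1. Of the chromosome 11 genes, the high sulphur gene Krtap1-4 read −0.10, −1.57 and −3.09 in KO, against −2.21, −2.86 and −2.77 in WT. The ultra-high sulphur gene Krtap9-1 read 0.94, −0.62 and −4.00 in KO, against −3.59, −4.21 and −3.73 in WT. For both, KO array 2 lay between KO array 1 and the WT arrays.

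The widest gaps between KO arrays 1 and 2 were those of Krtap31-1 and Krtap31-2 on chromosome 11 (Krtap31-2 is named after its values were seen). Krtap31-1 read −0.33, −3.35 and −3.43 in KO and −2.95, −4.09 and −3.24 in WT. Krtap31-2 read −1.52, −4.55 and −4.06 in KO and −4.73, −5.65 and −4.73 in WT. Both were about 3.02 log2 units brighter on KO array 1 than on KO array 2, where Krtap31-1 lay within the WT range and Krtap31-2 was below background.

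**Figure D4:**
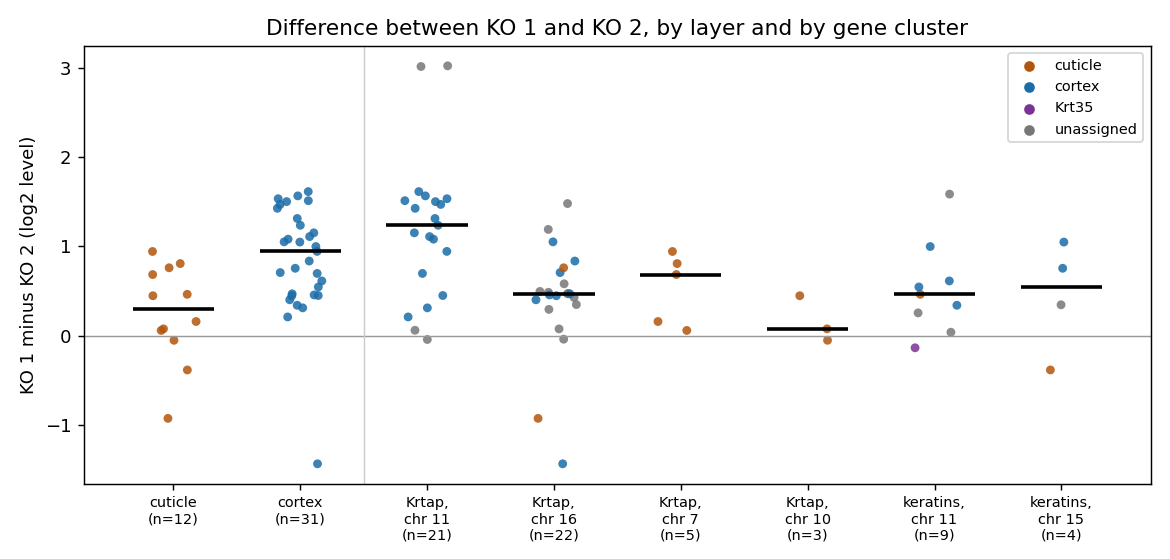
Level on KO array 1 minus level on KO array 2 (log2) for each hair shaft gene, grouped by layer (left of the grey line) and by gene type and chromosome (right of it); points are genes coloured by layer and black bars are medians. Nearly all cortex genes lie above 0, and the 2 points near 3 are Krtap31-1 and Krtap31-2.

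Background set how much of the WT level could be read. On the KO arrays 63, 60 and 33 of 64 members were well above background, against 33, 33 and 31 on the WT arrays. Of all 37000 genes and transcripts, 26817, 22011 and 24110 were so on the KO arrays and 23682, 23188 and 24415 on the WT arrays. The flag reached lower on KO array 1, whose lowest level well above background was −5.87, against −4.70 to −4.43 on the other arrays. For 28 members no WT array was above background, and 30 were above background on all 6 arrays. Over all 37000 these counts were 11478 and 20988. WT array 2 was the brightest WT array for 24 of 64 members, against 11325 of all 37000, which are similar shares. With levels floored, it lay at least 1 log2 unit above the mean of the other WT arrays for 7 of the 64, against 347 of all 37000. The 7 were Krt33a, Krt35, Krt84, Krtap13-1, Krtap17-1, Krtap19-2 and Krtap3-1. For Krtap13-1 the gap was 3.02 before flooring.

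Several probes per gene did not always read alike. Of 10 members with more than one probe, Krtap5-5 had 4, whose log2 fold changes ran from −0.14 to 4.85. The tested probe, the brightest by mean, was the one at −0.14 (−0.11, −0.16 and 0.04 in KO; 0.44, −0.03 and −0.21 in WT), and the other 3 lay between 2.87 and 4.85. Krtap20-2 also had 4 probes, from 0.55 to 5.01, and Krtap4-16 had probes at 2.17 and 5.14. For these genes the value given depends on the probe. Genes of a Krtap family resemble each other closely, and whether a probe also bound a relative's RNA was not tested.

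Other follicle genes were read on the same arrays to place the shaft genes. Their lists were compared by the median level minus the WT mean on KO arrays 1, 2 and 3. For the members these medians were 4.85, 4.12 and −0.0032 (floored 4.22, 3.81 and 0). The 12 hair shaft genes that are no keratin had 2.29, 1.97 and 0.19 (floored 1.23, 1.11 and 0.024). Among them Padi3, an enzyme that converts arginine in shaft and sheath proteins, read 1.48, 0.66 and −4.17 in KO and −4.85, −4.89 and −4.23 in WT. Tchhl1, a relative of trichohyalin, was higher by 3.16 (SE 1.19) and Crym, a thyroid hormone binding protein, by 2.87 (SE 0.94). Dsg4, a desmosomal cadherin of the shaft, was above background on KO array 1 alone. Of the 12, 10 had positive and 2 negative log2 fold changes, the negative ones being −0.61 for Hephl1 and −0.25 for Lypd3. With levels floored, 5 of the 12 were at least 2 log2 units above the WT mean on KO array 1 and 5 on KO array 2. The 11 inner root sheath genes, whose products mould the growing shaft, had medians of 3.90, 3.19 and −0.14. The sheath keratin Krt25 read 4.35, 4.11 and −6.65 in KO and −6.61, −6.69 and −6.83 in WT, at least 36.2-fold higher in KO (adjusted p = 0.744 in limma's fit). Of the same sheath, Krt26 was at least 5.22-fold higher (limma adjusted p = 0.637). Krt25 and Krt26 were above background on KO arrays 1 and 2 alone. Krt28 and Krt73 were higher by 2.38 (SE 1.005) and 2.03 (SE 0.91) on the log2 scale. Of the 11 sheath genes, 7 were at least 2 log2 units above the WT mean on each of KO arrays 1 and 2. By log2 fold change 8 of the 11 were positive and 3 negative, at −0.16 for Krt72, −0.21 for Tgm3 and −0.17 for Gata3. Krt74, among the 8, was above background on KO array 3 alone. The 8 melanocyte pigment genes had medians of 1.52, 1.82 and 0.03, but 0.33, 0.91 and 0 with levels floored, since Slc45a2 and Oca2 were below background on all WT arrays. Of the 8, 5 had positive and 3 negative log2 fold changes, the negative ones being −0.44 for Mlana, −0.12 for Mitf and −0.10 for Tyr. The melanosome enzyme Tyrp1 read 0.65, 0.84 and −0.81 in KO and −0.98, −1.16 and −1.85 in WT. Limma called 0 genes of these 3 lists. At an unadjusted p under 0.05 there were 4 of 12 other shaft genes, 1 of 11 sheath genes and 3 of 8 pigment genes, all higher in KO. Of all genes, 4.39% were higher in KO at that p.

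**Figure D5:**
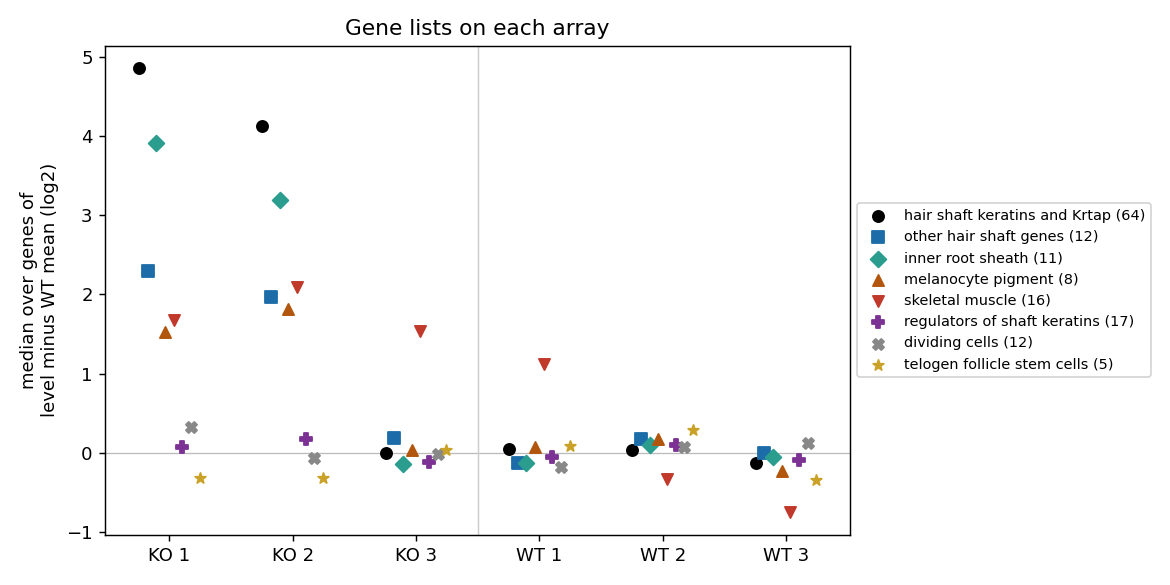
Median over the genes of each list of the level minus the WT mean (log2) on each array; the number of genes is in brackets. Shaft and sheath lists are high on KO arrays 1 and 2 only, the pigment list is high there with levels as measured (floored medians 0.33 and 0.91), the skeletal muscle list is high on all 3 KO arrays and on WT array 1, and the remaining lists lie within 0.5 of 0.

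Lists of growth, resting follicle and regulators lay near the WT mean. Genes of dividing cells had medians of 0.33, −0.07 and −0.02 on KO arrays 1, 2 and 3, and markers of resting follicle stem cells −0.31, −0.32 and 0.04. For 8 of the 12 genes of dividing cells KO array 1 lay above every WT array, against 19.1% of all genes. KO arrays 2 and 3 did so for 2 and 1 of the 12, against 30.7% and 25.8% of all genes. Companion and outer root sheath keratins had medians of −0.22, −0.28 and −0.46. The 17 regulators of shaft keratins had 0.07, 0.17 and −0.12, and limma called 0 of them. The homeobox gene Dlx2, the only one at an unadjusted p under 0.05, read −2.47, −2.51 and −3.76 in KO and −4.42, −3.39 and −4.56 in WT (log2 fold change 1.21, SE 0.48, limma adjusted p = 0.727). The fold change (log2) was −0.33 (SE 0.16) for Prdm1, a transcriptional repressor, 0.34 (SE 0.18) for Msx2, a homeobox factor of the hair matrix, and −0.32 (SE 0.16) for Krt17, a keratin of the outer root sheath. Hoxc13 and Lef1, named because their motif letters were counted, were highest on KO arrays 1 and 2. Hoxc13 read −0.18, −0.40 and −1.52 in KO and −1.31, −0.69 and −1.59 in WT. Lef1 read −0.98, −1.27 and −2.55 in KO and −2.10, −2.32 and −2.74 in WT. Their log2 fold changes were 0.50 (SE 0.43) and 0.79 (SE 0.45), with KO array 3 among the WT arrays for both.

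Skeletal muscle genes, markers of a tissue that a skin piece can hold, differed between the arrays in another way. Their medians were 1.68, 2.09 and 1.54 on the KO arrays and 1.12, −0.33 and −0.75 on WT arrays 1, 2 and 3, with 16 of 16 above background on every array. For 13 of the 16 all KO arrays lay above all WT arrays (6.6% of all genes). Limma called 0 of them, and 13 were higher in KO at an unadjusted p under 0.05 (4.39% of all genes). The sarcomere energy enzyme Ckmt2 read 4.43, 5.32 and 4.61 in KO and 3.69, 2.09 and 1.89 in WT. Muscle genes were thus high on KO array 3, on which the hair shaft genes were at the WT level. The part of muscle in the hair shaft values was not tested.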

How the data were processed

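The authors deposited spot intensity values of 6 arrays, written by Feature Extraction 11.5.1.1 per the file headers, as background-subtracted processed signal without normalization between arrays, with flags for spots well above background, saturated or outlying. The authors' deposited value table is on a log2 scale (column medians 6.80), with steps not given in the sources used here, except that limma is named in the submitters' processing notes. Each column headed WT followed the KO array of that replicate number, and the reverse (r = 0.887 to 0.931 over 30081 probes after removing probe means), so it served only as an alternative. Genotype, age and replicate came from the labels, and slides from the barcode in the scanner files' headers.

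Replicate spots without an outlier flag were averaged as log2 values (31 of 55681 probes dropped), and each array's 75th percentile was subtracted. Accessions were matched to a RefSeq table of GRCm38.p6 (27497 probes named, 28153 not). A gene was represented by its brightest probe by mean, with no filter on dim probes, in limma 3.58.1 with R 4.3.3 (lmFit, eBayes, no covariate, two-sided, Benjamini-Hochberg over 37000, threshold 0.05). The fit was tested on simulated data. The precision is limited by 3 arrays a group.

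The members, layer lists and alternatives were chosen with earlier results of these data known. The genes named are Sox4, every hair keratin, the brightest gene of each Krtap family, the 3 members with the largest and the 3 with the smallest log2 fold change, and up to 4 genes of each related list by smallest unadjusted p; other genes named were chosen after their values were seen. Alternatives were quantile normalization, normexp (offset 50, on median signal since no mean signal was used here), filters on dim probes, the mean of probes, slide, age or replicate number as a term, an intensity trend, arrays left out, and the value table. Values within a slide and floored levels were added after seeing the data. Protein composition classes were not analysed here. No column belonged to another series.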

Additional observations from a re-analysis of the deposited data

How the results depend on the processing

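No member was called higher or lower in KO under any alternative except without KO replicate 3 (0 to 30 called higher over the fits that leave out one array). The count at an unadjusted p under 0.05, 18 in the report, was 10 with quantile normalization, 48 with normexp background, 5 with slide as a block, 37 with age as a covariate, 46 with an intensity trend, 2 with KO replicates 1 and 2 left out, 0 in the value table as headed, and 2 to 55 with one array left out. The 13 members without overlap became 8 with quantile normalization, 8 with normexp background, 6 under the filter on all arrays of a group, 0 in the value table, and 13 to 59 with one array left out. Within slide 1, 28 members were brighter on KO array 3 than on WT array 1, and within slide 2, 61 were brighter on KO array 1 than on both WT arrays; these are counts of 1 array against 1 and against 2, and cannot be set beside the 13. The medians of all, cuticle and cortex members were −0.0032, 0.059 and −0.0083 with KO replicates 1 and 2 left out, −0.032, −0.14 and −0.033 within slide 1, and −2.10, −0.94 and −2.40 in the value table, whose headings turn every sign. The cuticle median minus the cortex median, −1.47, was −3.80 with age as a covariate, 0.067 with KO replicates 1 and 2 left out and 1.46 in the value table. Sox4 kept its sign except in the value table (2.56), but its adjusted p was over 0.05 with the mean of all probes (−4.21), slide as a block (−3.55), age as a covariate (−3.63), KO replicates 1 and 2 left out (−3.65), and with 5 of 6 arrays left out in turn (−3.64 to −3.47). Replicate numbers did not pair the samples (correlations of deviations −0.066, 0.0032 and 0.025): with the replicate block the members' median was 3.06, 26 members had an unadjusted p under 0.05, 0 were called, and Sox4 was −3.55 (adjusted p = 0.866). Further moves of over 1.5 times were those of the members' median (3.06) to 5.21 with age, 4.99 within slide 2 and 2.02 with normexp, of the cortex median (3.40) to 6.47 with age and 5.45 within slide 2, of the cuticle median (1.94) to 0.93 with normexp, 0.98 under the filter on all arrays of a group and 1.08 floored, and of the difference between them to −0.11 within slide 1 and −2.94 within slide 2; those with one array left out stand in the report. The remaining medians kept their sign and moved by less than 1.5 times. Of 1055 values of single members under alternatives, 30 gained a call, all without KO replicate 3. The causes were not tested. Shares of all genes at an unadjusted p under 0.05 or without overlap are not given here for the alternatives. Signal near background limits the 28 members dim on all WT arrays.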
